A study of Mus musculus with 24 samples.

Results

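The comparison described here is the change in J2 enrichment between tumours given ORIN1001 with docetaxel and tumours given ORIN1001 alone. J2 is an antibody that binds double-stranded RNA. From each tumour RNA bound by J2 and the total input RNA were sequenced as separate libraries, so that the enrichment of a transcript is the log2 ratio of its J2 level to its input level within 1 tumour. The comparison uses 12 of the 24 libraries of the series, which are the J2 and input libraries of 6 of its 12 tumours. Members were taken by their labelled treatment and paired by replicate number, with no measured value involved. The readout is the count of 53465 genes and of 1146 names of transposable elements (TEs) and other repeats.

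The combination group held 3 tumours of mice given ORIN1001 at 150 mg/kg by mouth every day and docetaxel at 10 mg/kg into the peritoneum once a week. The ORIN1001 group held 3 tumours of mice given ORIN1001 at 150 mg/kg and the vehicle of the other drug. All tumours were p53 knockout triple-negative mammary tumours of the 2153L model, grown from fragments in the cleared fat pads of female BALB/c mice aged 6 to 8 weeks, and treatment began at a volume of about 100 mm3. A single tumour line is the model, and the RNA came from bulk tumour, which holds host stroma, vessels and immune cells besides tumour cells. In bulk RNA, fewer cells of a type and less RNA per cell cannot be told apart. The labels present the tumours as biological replicates. P-values measure the spread between these 6 tumours and, through the shared estimate of spread, the other 6.

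IRE1α is a sensor of unfolded proteins in the endoplasmic reticulum. Its ribonuclease domain, which ORIN1001 inhibits, starts the splicing of Xbp1 mRNA and cuts other transcripts in a process called regulated IRE1-dependent decay (RIDD). Docetaxel is a taxane that stabilises microtubules and arrests dividing cells. Long double-stranded RNA in mammalian cells comes mainly from transcription of both strands of the mitochondrial genome, from inverted repeats such as SINEs, and from antisense or read-through transcription of retroelements. It is read by sensors such as TLR3, MDA5, PKR and the OAS enzymes. The series asks how the IRE1α ribonuclease bears on such RNA, and the comparison asks how adding docetaxel to its inhibition alters which RNAs J2 recovers.

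The combination J2 libraries stood apart from the others in depth and composition. They held 2.54 M, 4.69 M and 11.04 M gene counts in tumours 1, 2 and 3, against 14.15 M to 17.4 M in the ORIN1001 J2 libraries. Ribosomal RNA loci took 37.9%, 56.6% and 22.7% of the gene counts of the combination J2 libraries, against 1.30% to 3.26% in the ORIN1001 J2 libraries. In the inputs these loci took 1.09% to 2.86% in combination tumours and 0.432% to 0.584% in ORIN1001 tumours, at depths of 11.85 M to 15.65 M gene counts in the combination and 25.4 M to 45.04 M under ORIN1001. The part of depth and ribosomal RNA content in the changes below was not tested. Levels are in CPM, the count of a gene scaled to a common library size. Docetaxel tumour 3, which is in neither group but enters the filter, the scaling and the shared fit, had 67.1% ribosomal RNA in an input of 3.27 M gene counts. The basal keratin gene Krt14 stood at 106 to 144 CPM in combination inputs and at 67.2 to 134 CPM in ORIN1001 inputs. Each of the 13 cell type marker lists had at least 1 count for every member in the 6 inputs combined.

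J2 enrichment differed between combination and ORIN1001 tumours in many genes. By edgeR's quasi-likelihood test at an adjusted p under 0.05, 1507 of 17338 genes tested had higher J2 enrichment in combination tumours than in ORIN1001 tumours (8.69%), and 2121 had lower enrichment (12.2%), 20.9% in all. The median change over all genes was -0.05 on the log2 scale. In 1065 of the genes that rose, the fitted J2 over input coefficient was above 0 in the combination and below 0 in ORIN1001 tumours. In 1544 of those that fell it was below 0 in the combination and above 0 in ORIN1001. Of the 3628 genes called, 3528 also had no overlap between the 3 tumours of each side, against 7587 (43.8%) of all genes tested, 3301 higher (19%) and 4286 lower (24.7%). When the J2 libraries alone were compared between the treatments, 1962 genes were higher and 2624 lower in the combination (11.3% and 15.1%, 26.5% in all). In the inputs alone 1213 were higher and 930 lower (7% and 5.36%, 12.4% in all). Within combination tumours J2 and input levels differed in 36.8% of genes, 2825 of them higher in J2 libraries (16.3%) and 3550 lower (20.5%), against 28.1% within ORIN1001 tumours, with 2286 higher (13.2%) and 2581 lower (14.9%).

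**Figure D1:**
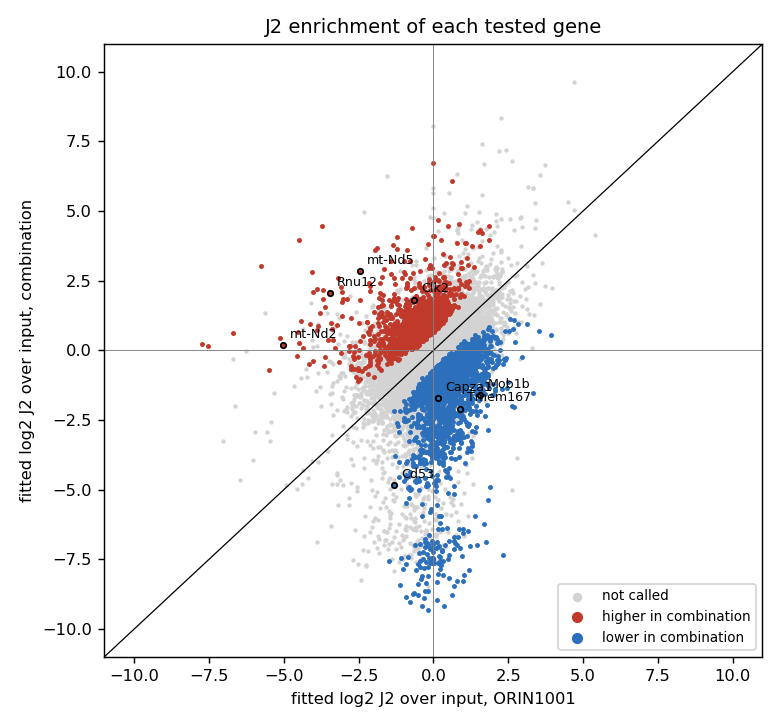
Fitted log2 ratio of J2 to input for each of 17338 genes, in combination tumours (vertical axis) and in ORIN1001 tumours (horizontal axis), with 3 tumours a side. Red points are the 1507 genes higher in the combination, blue points the 2121 lower, grey points were not called, and the diagonal marks equal enrichment. Of the labelled genes, mt-Nd5, mt-Nd2, Rnu12 and Clk2 lie above the diagonal and Capza1, Mob1b, Tmem167 and Cd53 below it.

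The number of genes called rests on which tumours are in the fit. It was 2008 without combination tumour 2, 1911 without combination tumour 3, 1309 without ORIN1001 tumour 2, 2034 without ORIN1001 tumour 3 and 5993 without docetaxel tumour 3. The balance of rises and falls also depends on scaling and method. In edgeR falls outnumbered rises with TMM factors, DESeq2 size factors (1531 rose and 2170 fell) and library totals. In limma-voom with sample weights and TMM factors, 3380 genes rose and 3335 fell. Without TMM factors, scaled by library totals alone, 70 genes rose and 1439 fell and the median change over all genes was -0.73. Of 140 called genes and TE names followed singly, 51 remained called whichever of the 6 tumours was left out. Calls were lost for 9, 64 and 67 of them without combination tumours 1, 2 and 3, and for 26, 74 and 60 without ORIN1001 tumours 1, 2 and 3. Changes below are therefore relative to the bulk of genes, which TMM sets near 0.

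RNA of the mitochondrial genome had the largest gain as a group. Of 10 mitochondrial mRNAs tested, 8 rose and 0 fell (80.0% higher, against 8.69% of all genes), with a median change of 5.16, against -0.05 for all genes. The fitted J2 over input ratio of these mRNAs had a median of 0.71 in combination tumours and -3.71 in ORIN1001 tumours. The circular mitochondrial genome is transcribed from both strands over most of its length, and its transcripts are a known source of double-stranded RNA.

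The gain can be followed in the counts of mt-Nd5, which encodes a core subunit of complex I. In J2 libraries mt-Nd5 stood at 626, 10675 and 2655 CPM in combination tumours 1, 2 and 3, against 133, 152 and 55.8 CPM in ORIN1001 tumours. In inputs it stood at 827, 160 and 364 CPM in the combination, against 427, 692 and 655 CPM under ORIN1001. The J2 libraries of the treatments did not overlap, whereas the inputs did. The log2 ratios per tumour were -0.40, 6.05 and 2.87 in the combination and -1.68, -2.18 and -3.54 under ORIN1001. All 3 combination tumours lay above all 3 ORIN1001 tumours, with tumour 2 by far the highest and tumour 1 the nearest to ORIN1001. The change was 5.31 ± 1.61 on the log2 scale (SE, edgeR adjusted p = 0.0307).

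mt-Nd2, mt-Nd4, mt-Co3 and mt-Co2 were also higher in all 3 combination tumours. For mt-Nd2, another complex I subunit, the log2 ratios were -2.89, 3.95 and -0.12 in combination tumours and -4.31, -4.94 and -5.64 in ORIN1001 tumours, with a change of 5.21 ± 1.26 (edgeR adjusted p = 0.0118). For mt-Nd4, also of complex I, they were -2.05, 3.97 and 0.41 in the combination and -3.79, -4.30 and -5.40 under ORIN1001, with a change of 5.19 ± 1.21 (edgeR adjusted p = 0.0101). The groups did not overlap in either gene, yet combination tumour 1 still had less of both in its J2 library than in its input. The cytochrome c oxidase subunit mt-Co3 rose by 6.10 ± 1.42 (edgeR adjusted p = 0.00987), with ratios of -1.20, 4.40 and 1.03 in the combination and -2.31, -2.37 and -3.25 under ORIN1001. Another subunit of that enzyme, mt-Co2, rose by 5.13 ± 1.04 (edgeR adjusted p = 0.00556). The complex III subunit mt-Cytb and the complex I subunit mt-Nd1 also rose, as did the ATP synthase subunit mt-Atp6, which had 0 counts in all 3 ORIN1001 J2 libraries and overlapping groups. In contrast, mt-Co1 with a change of 2.39 and mt-Nd6 with a change of 3.40 did not pass.

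Mitochondrial ribosomal and transfer RNAs moved the same way in 6 of 11 genes tested (54.5%), with 0 lower and a median change of 2.95. The large ribosomal RNA mt-Rnr2, on the mitochondrial chromosome at positions 1094 to 2675 of GRCm38.p6, had ratios of -1.16, 1.85 and 0.50 in combination tumours and -1.18, -2.12 and -2.51 in ORIN1001 tumours. Combination tumour 1 lay barely above the highest ORIN1001 tumour, and the change was 2.35 ± 0.74 (edgeR adjusted p = 0.0355). The glutamate transfer RNA gene mt-Te had the highest ratios, 2.82, 7.84 and 4.35 in the combination and 0.66, -0.23 and -0.53 under ORIN1001 (change 6.73 ± 1.70, edgeR adjusted p = 0.0141). mt-Te lies on the opposite strand to mt-Cytb and mt-Nd6 lies beside it, and a counting that ignores strand could mix them. The isoleucine and threonine transfer RNA genes mt-Ti and mt-Tt rose by 4.59 ± 1.10 and 4.40 ± 1.07 (edgeR adjusted p = 0.0114 and 0.0123), the second with overlapping groups.

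The count of mitochondrial mRNAs called was 3 without combination tumour 2 and 4 without combination tumour 3, ORIN1001 tumour 2 or ORIN1001 tumour 3, with medians of 3.61 to 5.42 in these fits. It was 10 of 10 without docetaxel tumour 3. The count of mitochondrial ribosomal and transfer RNAs was 0 without combination tumour 2, 2 without combination tumour 3, 1 without ORIN1001 tumour 2 and 2 without ORIN1001 tumour 3. mt-Nd2, mt-Nd4 and mt-Co2 remained called whichever of the 6 tumours was left out. mt-Nd5, mt-Rnr2, mt-Te, mt-Ti, mt-Tt and mt-Co3 were each lost without combination tumour 2, and mt-Nd5 and mt-Rnr2 also without combination tumour 3, ORIN1001 tumour 2 or ORIN1001 tumour 3. mt-Te was lost as well without ORIN1001 tumour 2 or 3, and mt-Tt without combination tumour 3 or ORIN1001 tumour 2. The calls of mt-Nd1 and mt-Atp6 were lost without combination tumour 2 or 3 or ORIN1001 tumour 2 or 3, and that of mt-Cytb without any 1 of these or ORIN1001 tumour 1. As a share of all counts, mitochondrial genes made up 0.344%, 1.85% and 0.675% of combination J2 libraries and 0.195%, 0.190% and 0.134% of ORIN1001 J2 libraries. The shares in the inputs were 0.962%, 0.460% and 0.617% in the combination and 0.706%, 0.963% and 0.957% under ORIN1001. The difference of the log2 share ratio was 2.56, with an exact two-sided permutation p of 0.1, the smallest that 3 against 3 tumours allow (0.146 adjusted over 19 classes).

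Some small structured RNAs of the nucleus also gained. Of 34 small nucleolar and Cajal body RNAs tested, which guide the chemical modification or processing of ribosomal and spliceosomal RNA, 9 rose and 1 fell (26.5% and 2.94%, against 8.69% and 12.2% of all genes), with a median change of 0.78. Snora73b, on chromosome 4 at 132352322 to 132352526, had ratios of 2.73, 2.45 and 2.65 in combination tumours and -1.08, -1.02 and -1.59 in ORIN1001 tumours. The 3 tumours of each group lay close to each other and far from the other group, and the change was 5.58 ± 1.12 (edgeR adjusted p = 0.0054). This change is larger than the widest gap between these ratios. The ratios hold a pseudocount of 0.5 CPM, which draws low levels together, so their closeness is partly set by it where levels are low. Scarna2, a Cajal body RNA with more counts, had ratios of 3.43, 2.15 and 3.77 in the combination and 1.38, 0.01 and 0.41 under ORIN1001 (change 2.53 ± 0.50, edgeR adjusted p = 0.00515). Scarna17 and Snora31 rose by 5.15 ± 0.87 and 3.33 ± 0.70 (edgeR adjusted p = 0.00299 and 0.00627). Snora73b, Scarna2, Scarna17 and Snora31 remained called with any 1 of the 6 tumours left out, and the number that rose was 4 without combination tumour 2 and 5 without combination tumour 3, ORIN1001 tumour 2 or ORIN1001 tumour 3. Snord8, with 0 counts in all 3 combination J2 libraries, was the member that fell, a call lost without combination tumour 3.

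The minor spliceosome, which removes a small class of introns, has its own snRNAs, and 2 of them were the spliceosomal snRNAs that rose among 6 tested (33.3%, against 8.69% of all genes). The other 4 had changes below 0 that did not pass, and the median of the 6 was -0.61. Rnu12, the U12 snRNA gene, had ratios of -0.56, 3.84 and 2.19 in combination tumours and -2.51, -3.30 and -3.15 in ORIN1001 tumours (change 5.53 ± 1.08, edgeR adjusted p = 0.00496). Rnu11, the U11 snRNA gene, had ratios of 0.66, 2.06 and 0.24 in the combination and -1.44, -1.82 and -1.56 under ORIN1001 (change 5.51 ± 0.78, edgeR adjusted p = 0.00237). Neither overlapped between groups. The change of Rnu11 was larger than the widest gap between its ratios, which hold the same pseudocount. The U2 gene copy Rnu2-10 had a change of -1.71 ± 0.68 that did not pass (edgeR adjusted p = 0.087). Among 9 other structured small RNAs, the vault RNA Vaultrc5 rose by 2.85 ± 0.71 (edgeR adjusted p = 0.0137), a call lost without combination tumour 2. Rn7s2, a copy of the signal recognition particle RNA, was also called, with 0 counts in all 3 ORIN1001 J2 libraries and 0, 1.32 and 0.40 CPM in the combination, a call kept in 1 of the 6 fits that each left out 1 tumour. Some of these RNAs lie in introns of host genes, so their counts can hold host transcript.

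**Figure D2:**
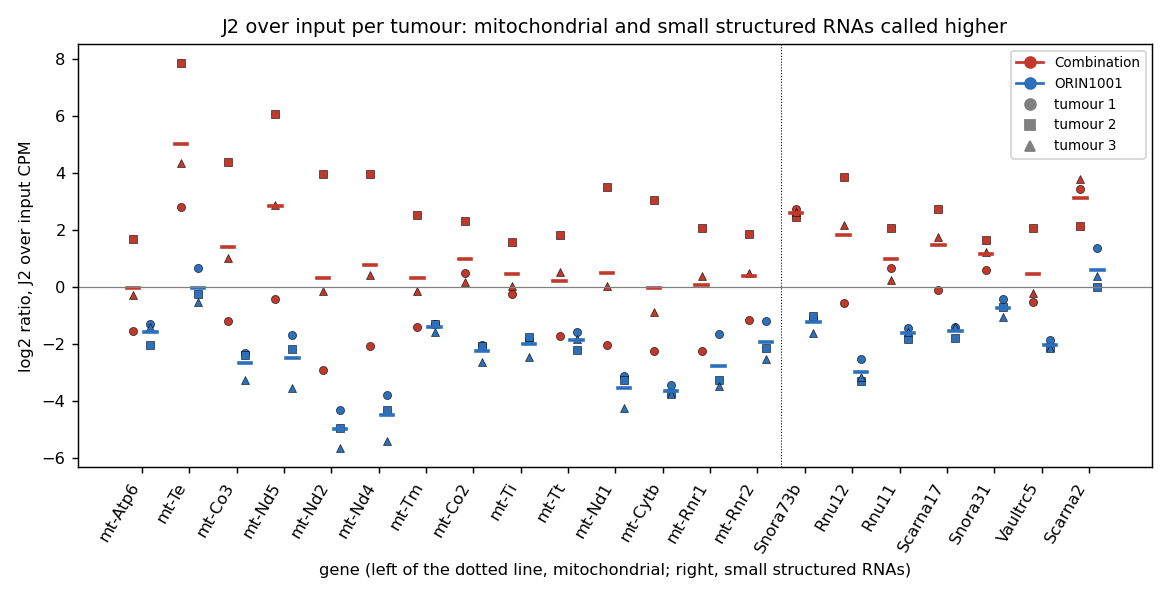
Log2 ratio of J2 to input CPM (pseudocount 0.5) in each tumour for the mitochondrial genes called higher (left of the dotted line) and for 7 small structured RNAs (right of it), ordered by fitted change within each part. Combination tumours are red and stand left of the ORIN1001 tumours in blue, the marker shape gives the tumour number and the bar the mean of 3. Combination tumour 2 is the highest in nearly every mitochondrial gene, whereas the ratios of Snora73b in the 3 combination tumours lie between 2.45 and 2.73.

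Of 73 microRNA genes tested, 5 rose and 4 fell (6.85% and 5.48%, both below the 8.69% and 12.2% of all genes), with a median change of -0.59 that was above 0 in fits restricted to the 12 libraries or to genes with higher counts. A primary microRNA carries a stem of paired bases, and the sequences of the called hairpins held by RefSeq (GRCm38.p6) are given 5′ to 3′ to show that stem, with the mature microRNA in capitals.
Mir703, chr5:98475556-98475664, minus strand: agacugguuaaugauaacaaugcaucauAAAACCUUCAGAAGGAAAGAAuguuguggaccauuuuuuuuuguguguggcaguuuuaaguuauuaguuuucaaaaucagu
Mir5125, chr17:23823291-23823369, plus strand: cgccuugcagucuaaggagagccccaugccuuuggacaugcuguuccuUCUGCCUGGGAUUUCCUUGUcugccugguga
Mir8091, chr19:41588651-41588789, plus strand: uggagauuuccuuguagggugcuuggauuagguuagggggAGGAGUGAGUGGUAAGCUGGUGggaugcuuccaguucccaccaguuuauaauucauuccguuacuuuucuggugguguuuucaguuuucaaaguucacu
Mir1898, chr15:12171492-12171574, plus strand: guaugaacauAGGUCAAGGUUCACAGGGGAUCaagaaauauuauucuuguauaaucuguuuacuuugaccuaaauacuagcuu

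RNAfold predicted 80 of 109 bases paired for Mir703 and 50 of 79 for Mir5125, whose J2 enrichment rose, and 102 of 139 for Mir8091 and 48 of 83 for Mir1898, whose enrichment fell. The share paired was therefore 73.4% and 63.3% in the hairpins that rose and 73.4% and 57.8% in those that fell, so these 4 stems did not separate by direction. The mature sequences, with the seed (bases 2 to 8) in capitals, are given for the same genes and for Mir6236, the most abundant of the 9.
mmu-miR-703: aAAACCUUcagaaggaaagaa
mmu-miR-6236: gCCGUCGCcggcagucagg
mmu-miR-5125: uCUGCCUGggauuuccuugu
mmu-miR-8091: aGGAGUGAgugguaagcuggug
mmu-miR-1898: aGGUCAAGguucacaggggauc

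The 8 mature sequences found for 7 of the 9 genes had 8 different seeds, so no seed was shared. Mir703 stood at 6.91, 7.89 and 5.70 CPM in combination J2 libraries and at 1.62, 0.97 and 0.97 CPM in ORIN1001 J2 libraries, with ratios of 1.61, 3.61 and 3.08 against -0.27, -0.85 and -0.86. In inputs Mir703 stood at 1.93, 0.19 and 0.23 CPM in the combination, near the floor in tumours 2 and 3, and at 2.06, 2.15 and 2.16 CPM under ORIN1001. Its groups did not overlap, and the change was 4.49 ± 0.78 (edgeR adjusted p = 0.00361). Mir6236 stood at 242, 1034 and 84.9 CPM in combination J2 libraries and at 40.0, 14.7 and 25.7 CPM in ORIN1001 J2 libraries (change 3.92 ± 0.66, edgeR adjusted p = 0.00304). The order of its J2 levels over the combination tumours is that of the share of ribosomal RNA loci in the same libraries, and their part in its change was not tested. Mir1898 was near the floor, at 0.53, 0.44 and 0.30 CPM in combination J2 libraries and 2.18, 3.09 and 0.40 CPM in ORIN1001 J2 libraries. Its ratios were -0.03, -1.10 and -0.84 in the combination and 1.48, 2.18 and 0.32 under ORIN1001. The change of -3.66 ± 0.85 (edgeR adjusted p = 0.0098) was a call lost without combination tumour 3. Mir8091 fell by 1.51 ± 0.42 on the log2 scale (edgeR adjusted p = 0.0221), a call lost without combination tumour 2 or 3 or ORIN1001 tumour 2 or 3. The call of Mir5125, with a change of 2.45 ± 0.64 (edgeR adjusted p = 0.0168), was lost without combination tumour 2 or 3 or ORIN1001 tumour 1 or 3. Mir17hg, the host transcript of the miR-17 cluster, fell by 2.48 ± 0.55 on the log2 scale (edgeR adjusted p = 0.0082), with input levels of 11.7 to 16.9 CPM in the combination and 4.003 to 6.005 CPM under ORIN1001.

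Ribosomal RNA loci rose in share, with log2 share ratios of J2 to input of 4.96, 4.34 and 4.41 in combination tumours and 2.68, 1.47 and 1.70 in ORIN1001 tumours. The difference was 2.62 and the groups did not overlap (exact two-sided permutation p = 0.1, adjusted p = 0.146). The libraries had been depleted of ribosomal RNA by Ribo-Zero. Of 6 such loci tested singly, Gm42418 rose by 2.79 ± 0.67 (edgeR adjusted p = 0.0118), while Gm26917, the most abundant, had a change of 2.93 ± 1.56 that did not pass (edgeR adjusted p = 0.194). The call of Gm42418 was lost without ORIN1001 tumour 2 or 3. The 5S gene copy n-R5s200 was called lower, at an average level below 1 CPM.

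Among TE names the planned fit called 1 of 1046, 0.0956%, and 85 had an unadjusted p under 0.05. The 1 call was GSAT_MM, the major satellite repeat of mouse pericentromeric heterochromatin. Its ratios were 1.89, 3.61 and 2.44 in combination tumours and -0.20, 0.08 and -0.50 in ORIN1001 tumours, and its change was 3.31 ± 0.52 (edgeR adjusted p = 0.0362). The groups were well apart, yet the call was lost when any of the tumours other than combination tumour 1 was left out. The count depends on docetaxel tumour 3. Without it 688 of 1052 names were called (65.4%), 75 higher (7.13%) and 613 lower (58.3%), and in the 12 libraries alone 592 of 1029 (57.5%), 55 higher (5.34%) and 537 lower (52.2%). Without docetaxel tumour 3 and 1 combination tumour, 620 to 711 names were called. Between the J2 libraries alone 86 names were higher in the combination (8.22%) and 18 lower (1.72%), 9.94% in all, and within combination tumours 37 were higher in J2 than in input libraries (3.54%) and 6 lower (0.574%), 4.11% in all.

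The names were not alike in direction. In the planned fit the median change was -1.39 and 185 of 1046 were above 0, and 639 names (61.1%) had groups without overlap. In 583 of them (55.7% of all names) the combination tumours were lower and in 56 (5.35%) higher. When the TE table was scaled by itself the median was -0.28, with 34 names higher and 29 lower. TE names were 15.0%, 27.7% and 19.1% of all counts in combination J2 libraries and 14.4%, 19.1% and 12.0% in ORIN1001 J2 libraries. In inputs they were 19.6%, 29.5% and 21.4% in the combination and 15.3%, 12.2% and 11.8% under ORIN1001. The log2 ratio of these shares was lower in the combination by 0.40. With TE counts set against gene counts without ribosomal RNA loci, a different base, the log2 ratio was higher there by 0.216.

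Young L1 elements went against that shift. L1 is the autonomous LINE retrotransposon of mammals, and the L1Md and L1_Mus names are its mouse-specific subfamilies, some of which still hold mobile copies. All 10 names tested had higher ratios in every combination tumour than in every ORIN1001 tumour, as did 5.35% of all TE names. The median change of the 10 was 2.98. None passed in the planned fit, in which the adjusted p of L1Md_A was 0.166 by edgeR, while 10 of 10 passed without docetaxel tumour 3 (7.13% of all TE names were higher there) and in the 12 libraries alone. L1Md_A had ratios of 2.02, 5.91 and 3.82 in combination tumours and 0.41, 0.79 and -0.21 in ORIN1001 tumours, with a change of 3.58 ± 0.80. Without docetaxel tumour 3 its change was 3.57 ± 0.65 (edgeR adjusted p = 0.000329). The smallest change was that of L1Md_Gf, with ratios of 2.18, 3.67 and 3.22 in the combination and 1.33, 1.22 and 0.38 under ORIN1001.

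L1Md and L1_Mus names made up 0.853%, 9.41% and 3.00% of all counts in combination J2 libraries, against 0.365%, 0.380% and 0.192% in ORIN1001 J2 libraries. In inputs they made up 0.470%, 0.590% and 0.464% in the combination and 0.361%, 0.286% and 0.265% under ORIN1001. The J2 share of tumour 2 stood far above the rest, and that of tumour 1 was the nearest to ORIN1001. The difference in the log2 share ratio was 2.53 (exact two-sided permutation p = 0.1, adjusted p = 0.146) and 1.79 without combination tumour 2. The median change of the 10 names stayed above 0 in every fit run, at 2.00 without docetaxel tumour 3 and combination tumour 2 and at 4.08 with the TE table scaled by itself.

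Short interspersed elements did not all move one way. B2_Mm1a, from a family transcribed by RNA polymerase III, had ratios of 1.45, 4.08 and 2.41 in combination tumours and 0.49, 0.73 and -0.28 in ORIN1001 tumours. Its change of 2.31 ± 0.69 did not pass in the planned fit (edgeR adjusted p = 0.293) and passed without docetaxel tumour 3 (edgeR adjusted p = 0.00161). B2_Mm1t had a change of 2.08 ± 0.69 with the same outcome (0.406 and 0.00211 by edgeR). The related B3 had ratios of -0.40, -0.44 and -0.51 in the combination and 0.05, 1.14 and 0.32 under ORIN1001, and a change of -0.95 ± 1.29 in the planned fit. In the fit of the TE table by itself the change of B3 was 0.16.

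The 14 B4, ID and MIR names belong to older SINE families derived from transfer RNA. All 14 had lower ratios in every combination tumour than in every ORIN1001 tumour, as did 55.7% of all TE names. The median change of the 14 was -1.54. They made up 1.43%, 0.690% and 1.57% of combination J2 libraries and 2.44%, 3.36% and 2.07% of ORIN1001 J2 libraries, whereas in inputs they made up 3.58%, 5.96% and 4.15% in the combination and 2.81%, 2.08% and 1.96% under ORIN1001. As shares of all counts, both J2 and input were without overlap, in opposite directions. Ribosomal RNA loci took 32.2%, 40.9% and 18.3% of all counts in combination J2 libraries, which lowers every other share there. Between the J2 libraries alone 0 of the 14 names were called, with a median difference of -0.62. MIR had ratios of -0.70, -2.28 and -1.06 in the combination and -0.02, 1.19 and 0.26 under ORIN1001. Without docetaxel tumour 3 its change was -1.82 ± 0.40 (edgeR adjusted p = 0.00109), and all 14 names passed in that fit, in which 58.3% of all TE names were lower. B1 names, a family akin to the 7SL RNA, had a median change of -0.76, with 0 names higher and 8 of 16 lower without docetaxel tumour 3, a share near that of all TE names. With the TE table scaled by itself the B1 median was 0.34, and that of the B4, ID and MIR names was -0.43.

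DNA transposons and other ancient repeats had the lowest median change of the larger families, -2.16 over 206 names, with 10 above 0. The summed share of their counts had a difference of 0.03 in the log2 ratio, with overlapping groups. Most of the family's counts in combination J2 libraries were those of FordPrefect, a name with a change above 0 that is described below. It held 79728, 45390 and 183841 counts in tumours 1, 2 and 3, so the sum says little of the other names. Without docetaxel tumour 3, 170 of them were lower and 3 higher, against 58.3% and 7.13% of all TE names. Among LTR elements, which are relics of retroviruses, the 40 IAP, ETn and MMERVK names had a median change of -0.66. In the fit without docetaxel tumour 3, 7 of the 40 were higher and 11 lower. This is a larger share higher and a smaller share lower than among all TE names (7.13% and 58.3%). For the 129 MERVL and MaLR names the median was -1.03. In the same fit 12 of these were higher and 74 lower, shares close to those of all TE names. Both of these medians were above 0, at 0.45 and 0.08, with the TE table scaled by itself. The LTR name IAPLTR1_Mm had ratios of 1.85, 2.38 and 1.71 in the combination and 1.33, 0.99 and 0.64 under ORIN1001, with no overlap. FordPrefect, a DNA transposon that went against its family, had ratios of 5.64, 3.64 and 4.70 in the combination and 2.18, 1.30 and 1.29 under ORIN1001 (change 3.07 ± 1.28, edgeR adjusted p = 0.526 in the planned fit and 0.00015 without docetaxel tumour 3). The 7SK repeat, homologous to an abundant nuclear RNA that restrains transcription elongation, had ratios of 0.01, 1.28 and 0.33 in the combination and -0.80, -1.35 and -1.40 under ORIN1001.

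Besides GSAT_MM, the 4 names of smallest p above 0 and the 5 below 0, none called in the planned fit, included long terminal repeats, young L1 elements and old repeats. RLTR20A2B_MM had ratios of 2.45, 4.66 and 2.76 in combination tumours and 0.28, 0.90 and -0.11 in ORIN1001 tumours (change 2.98 ± 0.66), and RLTR13A1 had a change of 3.53 ± 0.84. L1Md_A and L1Md_F3, with changes of 3.58 and 3.45, were the other 2, and all 4 had an adjusted p of 0.166 by edgeR. LTR108a_Mam had ratios of -2.70, -4.24 and -2.26 in the combination and -0.15, 0.05 and 0.20 under ORIN1001 (change -3.37 ± 1.10, edgeR adjusted p = 0.406). The others below 0 were Eulor6B, MamRep564, DNA1_Mam and RLTR48B, with changes of -4.40, -3.66, -6.60 and -2.28, from at most 10 counts in any combination J2 library. All of these names had groups without overlap and passed without docetaxel tumour 3.

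**Figure D3:**
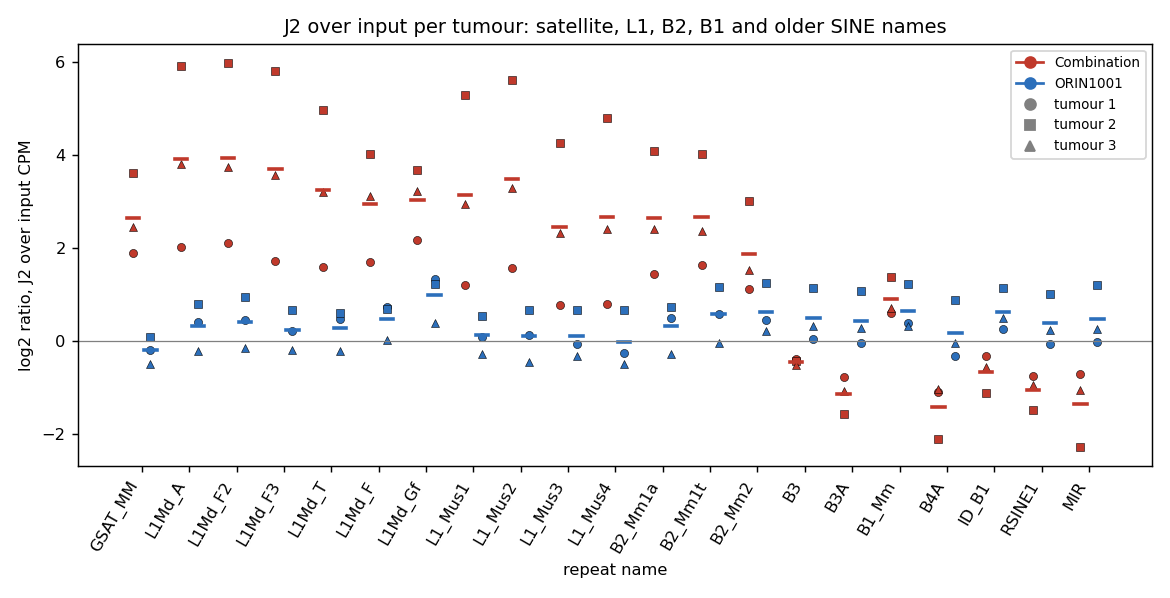
Log2 ratio of J2 to input CPM (pseudocount 0.5) in each tumour for the major satellite, the 10 young L1 names, and names of the B2, B1, B4, ID and MIR families of SINEs. Combination tumours are red and stand left of the ORIN1001 tumours in blue, marker shapes give the tumour number and bars the mean of 3. The L1 names and GSAT_MM are higher in all 3 combination tumours and the B4, ID and MIR names lower.

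Among the nuclear genes that rose, the rule for named genes (an adjusted p under 0.05, an average of at least 1 CPM and no overlap) gave, besides the mitochondrial and small RNAs above, Zfp972 and Meltf. Zfp972, a zinc finger gene, had ratios of 2.87, 7.70 and 4.72 in combination tumours and 1.24, 0.64 and -0.77 in ORIN1001 tumours (change 5.48 ± 1.78, edgeR adjusted p = 0.0417). Its J2 level of 221 CPM in combination tumour 2 stood far above the 9.57 and 27.3 CPM of the other 2, and the call was lost without any 1 of 5 tumours. Meltf, which encodes melanotransferrin, had at most 3 counts over the J2 libraries of either group, so no fold is given. Cytosolic ribosomal protein genes (7 rose and 2 fell of 88), nuclear respiratory chain genes (10 and 2 of 89) and replication-dependent histones (4 and 0 of 62) had medians of 0.52, 0.52 and 0.50. Their shares called higher, 7.95%, 11.2% and 6.45%, are to be read against the 8.69% of all genes. Without docetaxel tumour 3 the counts that rose were 20, 29 and 14, in a fit where 14.4% of all genes rose. Without ORIN1001 tumour 2 the counts were 2, 2 and 1, in a fit where 500 genes rose in all. All 3 medians were below 0 when scaled by library totals, where they lay 0.55, 0.57 and 0.55 above the median of all genes.

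Clk2, Zbtb7b, Clic1 and Hdgfl2 are abundant nuclear mRNAs among the genes of smallest p-value that rose. They were chosen for those p-values after they were seen, so that tight and separate groups follow from the choice and are given as a description. Clk2, a kinase of splicing factors, had J2 levels of 51.05, 120 and 51.3 CPM in combination tumours and 21.4, 15.4 and 17.4 CPM in ORIN1001 tumours. Its input levels were 20.3, 20.3 and 17.3 CPM in the combination and 28.1, 27.1 and 29.96 CPM under ORIN1001, and its change was 2.49 ± 0.34 (edgeR adjusted p = 0.00237). Neither the J2 nor the input levels overlapped, and they differed in opposite directions. Zbtb7b, a transcription factor, had ratios of 2.32, 2.13 and 2.11 in the combination and 0.82, 0.30 and 0.57 under ORIN1001. The combination tumours lay close together and above every ORIN1001 tumour, and its change was 1.63 ± 0.24 (edgeR adjusted p = 0.00237). Clic1, a chloride channel protein, and Hdgfl2, a chromatin-binding protein, rose by 2.87 ± 0.43 and 2.75 ± 0.39 (edgeR adjusted p = 0.00237 for both). All 4 calls remained with any 1 of the 6 tumours left out.

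The falls included abundant transcripts and genes with few counts. Mob1b, an activator of the Hippo pathway kinases LATS1 and LATS2, was the most abundant of the 12 largest falls. In J2 libraries it stood at 77.1, 71.9 and 56.2 CPM in combination tumours and at 344, 1278 and 466 CPM in ORIN1001 tumours, with inputs at 200, 221 and 194 CPM in the combination and 208, 194 and 192 CPM under ORIN1001. The J2 levels were apart while the inputs overlapped, and the change was -3.16 ± 0.67 (edgeR adjusted p = 0.00666). Cd53, a tetraspanin of leukocytes, had ratios of -4.65, -3.09 and -4.98 in the combination and -1.22, -1.34 and -1.22 under ORIN1001 (change -3.53 ± 0.68, edgeR adjusted p = 0.00474). Snhg14, a long host transcript of small nucleolar RNAs in the imprinted Prader-Willi region, had ratios of -2.08, -2.81 and -4.02 in the combination and -0.42, 1.54 and -0.15 under ORIN1001 (change -4.32 ± 0.80, edgeR adjusted p = 0.00407).

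In other falls the inputs differed more than the J2 libraries. Fut9, a fucosyltransferase, stood at 4.25, 6.58 and 5.10 CPM in combination J2 libraries and at 1.83, 17.95 and 3.41 CPM in ORIN1001 J2 libraries, which overlap. Its inputs stood at 23.6, 33.5 and 25.7 CPM in the combination and at 1.31, 2.25 and 1.35 CPM under ORIN1001, and its J2 enrichment fell by 4.08 ± 0.53 on the log2 scale (edgeR adjusted p = 0.00232). The odorant receptor gene Olfr111 had the same form, with an input difference of 3.48 and a J2 difference of 0.13 on the log2 scale. P2ry10b, a purinergic receptor gene, had 0 counts in all 3 combination J2 libraries. Taking 3 counts over these J2 libraries as the limit, its ratio of J2 to input was at least 6.98-fold lower than under ORIN1001. The sialidase gene Neu2, the lipid carrier gene Stard6 and the adaptor gene Ldb2 also had 0 counts in the combination J2 libraries. Their ratios of J2 to input were at least 5.38-fold, 2.20-fold and 2.14-fold lower by the same limit. These 4 calls were lost without combination tumour 3, those of Stard6 and Ldb2 also without ORIN1001 tumour 2 or 3 and that of Ldb2 also without combination tumour 2 or ORIN1001 tumour 1. Eda2r, a receptor of the tumour necrosis factor family, and Gon7, of a complex that modifies transfer RNAs, had 0, 0 and 0.30 CPM in combination J2 libraries.

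Capza1, Tmem167 and Zbtb33 are abundant mRNAs among the genes of smallest p-value that fell. They too were chosen for those p-values after they were seen. Tight and separate groups therefore follow from the choice and are given as a description. Capza1, a capping protein of actin filaments, had J2 levels of 48.4, 34.6 and 40.6 CPM in combination tumours and 192, 208 and 243 CPM in ORIN1001 tumours, and ratios of -1.49, -1.64 and -1.93 against 0.03, 0.09 and 0.33. The groups were far apart, and the change was -1.85 ± 0.22 (edgeR adjusted p = 0.00232). Tmem167, a protein of the secretory pathway, fell by 2.98 ± 0.39 on the log2 scale and the methyl-CpG reader Zbtb33 by 2.30 ± 0.29 (edgeR adjusted p = 0.00232 for both). These, like Mob1b, Cd53 and Snhg14, remained called with any 1 of the 6 tumours left out. Of 351 zinc finger genes named Zfp, 23 rose and 49 fell (6.55% and 14%, against 8.69% and 12.2% of all genes). Without ORIN1001 tumour 2, 7 of them rose and 21 fell, in a fit where 500 and 809 of all genes did. Zfp644, Zfp266, Zfp120 and Zfp280d fell by 1.94 to 2.21 on the log2 scale.

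The calls ran with the J2 enrichment that genes had in vehicle tumours, which take no part in the difference itself. Vehicle mice got neither drug. Of the 3468 genes least enriched by J2 in the 3 vehicle tumours, 491 rose (14.2%) and 46 fell (1.33%), with a median change of 0.51. Of the 3468 most enriched, 70 rose (2.02%) and 966 fell (27.9%), with a median change of -0.97. The fitted J2 over input ratio of these groups had medians of -0.53 and 0.05 in combination tumours, against -1.01 and 0.90 in ORIN1001 tumours. These medians lay closer together in the combination.

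Gene length ran with the same order. RefSeq gives a gene span for 15102 of the genes tested (87.1%). Of the 3021 genes with the shortest spans, 362 rose and 116 fell, and of as large a group with the longest, 170 rose and 493 fell, with medians of 0.34 and -0.22. Chromosomes differed too. On chromosome 17, 17.5% of genes rose and 5.7% fell, on chromosome X 5.86% rose and 21.7% fell, and the medians were 0.36 and -0.46. Total RNA holds unspliced transcripts, and no measure of intronic reads was used here.

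**Figure D4:**
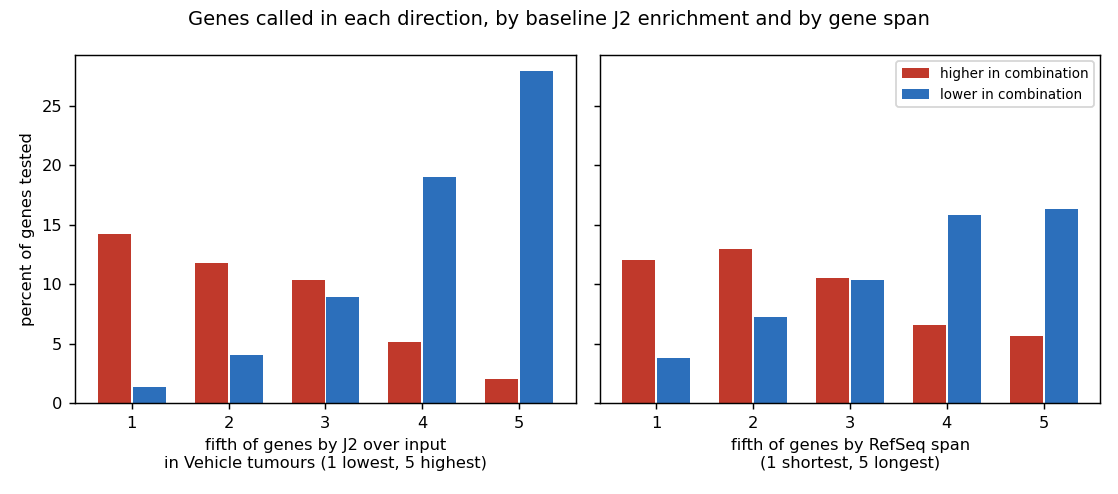
Percent of tested genes called higher (red) or lower (blue) in the combination than under ORIN1001, for 5 groups of equal size ordered by the fitted J2 over input ratio in vehicle tumours (left) and by RefSeq gene span (right). Genes lower in the combination made up 1.33% of the least enriched group and 27.9% of the most enriched.

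Genes of the IRE1α pathway did not move as a block. Ern1, which encodes IRE1α, had ratios of 0.49, 0.26 and 0.36 in combination tumours and 0.48, 0.38 and 0.52 in ORIN1001 tumours, which overlap, with a change of -0.09 ± 0.21 (edgeR adjusted p = 0.812). Xbp1, whose mRNA IRE1α splices at a pair of small stem-loops, had ratios of 0.37, 0.76 and -0.14 in the combination and 1.16, 1.20 and 1.47 under ORIN1001. The groups did not overlap, yet the change of -0.95 ± 0.50 did not pass (edgeR adjusted p = 0.183). Its J2 levels were 79.8, 78.0 and 60.7 CPM in the combination and 265, 346 and 381 CPM under ORIN1001, and its inputs 61.5, 45.7 and 66.8 CPM in the combination and 119, 150 and 137 CPM under ORIN1001. Both libraries of Xbp1 were thus lower in all 3 combination tumours.

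Of 40 IRE1 and XBP1 target genes, which encode chaperones and translocation and degradation factors of the endoplasmic reticulum, 3 rose and 8 fell (median change -0.30, 20% lower against 12.2% of all genes). Dnajb9, a cochaperone that restrains IRE1α, had ratios of -1.33, -3.24 and -1.69 in combination tumours and -0.44, -0.10 and -0.35 in ORIN1001 tumours (change -1.83 ± 0.49, edgeR adjusted p = 0.0178). Derl1 and Derl2, of the channel that removes misfolded proteins, fell by 0.70 ± 0.20 and 1.28 ± 0.36 on the log2 scale (edgeR adjusted p = 0.0234 and 0.023). Pdia5, Manf and Creld2 rose by 2.26, 1.32 and 1.20, with overlapping groups in each. Without combination tumour 3 or ORIN1001 tumour 2, 0 of the 40 were called, without ORIN1001 tumour 3 the count was 1 and without combination tumour 2 it was 3, all lower, and without ORIN1001 tumour 1 it was 6, of which 3 were lower. Of 12 reported RIDD substrates 1 rose and 0 fell (8.33% and 0%, against 8.69% and 12.2% of all genes). Col6a1, a collagen VI chain, was the 1 that rose, by 1.64 ± 0.42 (edgeR adjusted p = 0.0146). Its J2 difference between treatments was -0.01 and its input difference -1.65, and the call was lost without combination tumour 2 or ORIN1001 tumour 2.

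Of 20 genes of the ATF4 and CHOP branch of the stress response 3 rose and 2 fell (15.0% and 10.0%, against 8.69% and 12.2% of all genes), with a median change of 0.37. Ddit3, which encodes CHOP, had ratios of 0.65, 0.80 and 0.27 in combination tumours and -1.01, -1.55 and -1.09 in ORIN1001 tumours (change 1.91 ± 0.34, edgeR adjusted p = 0.00379). The cystine transporter gene Slc7a11 had ratios of -0.52, -1.05 and -1.05 in the combination and 0.83, 2.23 and 1.33 under ORIN1001 (change -2.45 ± 0.41, edgeR adjusted p = 0.00304). Psat1, of serine synthesis, fell by 1.30 ± 0.23 on the log2 scale (edgeR adjusted p = 0.00345). The groups of all 3 genes were apart, and the calls remained with any 1 of the 6 tumours left out.

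Of 30 genes of mitosis, the step that docetaxel blocks, 4 rose and 2 fell (13.3% and 6.67%, against 8.69% and 12.2% of all genes), with a median change of 0.20. The chromosomal passenger genes Aurkb, Incenp and Cdca8 rose by 1.25 ± 0.26, 1.21 ± 0.35 and 1.06, the first with ratios of 0.71, 0.96 and 1.29 in combination tumours and 0.09, -0.63 and -0.19 in ORIN1001 tumours (edgeR adjusted p = 0.0065). The spindle checkpoint kinase gene Bub1 had ratios of -0.45, -1.06 and -0.42 in the combination and 0.23, 0.67 and 0.27 under ORIN1001 (change -1.02 ± 0.27, edgeR adjusted p = 0.017). Neither Aurkb nor Bub1 overlapped between groups, and their inputs did. Aurkb remained called with any 1 of the 6 tumours left out. Bub1 was lost without combination tumour 2 or ORIN1001 tumour 2, Incenp without combination tumour 2 or 3 or ORIN1001 tumour 2 or 3, and Cdca8 without any tumour other than combination tumour 3. Of 12 tubulin genes, Tuba1b was the 1 called, with a change of -1.10, and of 17 genes of antigen presentation H2-Aa was the 1 called, with a change of -0.91, against 20.9% of all genes called. Both calls were lost without combination tumour 2 or 3 or ORIN1001 tumour 1 or 3. Of 21 hypoxia and glycolysis genes 2 rose and 2 fell (9.52% each, near the shares of all genes), and Vegfa, the vascular growth factor gene, rose by 1.39 ± 0.31 (edgeR adjusted p = 0.00784).

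Trp53 is deleted in these tumours by their labels, yet gene counts were present, at 35.7, 20.9 and 26.6 CPM in combination inputs and 39.4, 37.9 and 46.0 CPM in ORIN1001 inputs. Counts per gene do not say which exons they cover, so they do not check the label. Its J2 enrichment rose by 1.39 ± 0.41 (edgeR adjusted p = 0.026), with ratios of -0.92, 0.96 and -0.29 in the combination and -1.21, -1.68 and -1.37 under ORIN1001. The call was lost without combination tumour 2 or 3 or ORIN1001 tumour 2 or 3. Among 15 listed p53 targets, Trp53 itself included, 3 rose and 4 fell (20% and 26.7%, against 8.69% and 12.2% of all genes), with a median change of -0.01. Gadd45a, which acts in growth arrest, rose by 1.74 ± 0.33 and Trp53inp1, of the cell death response, fell by 2.53 ± 0.51 on the log2 scale (edgeR adjusted p = 0.00464 and 0.00559).

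Of 16 genes of double-stranded RNA sensors and their signalling, 2 rose and 1 fell (12.5% and 6.25%, against 8.69% and 12.2% of all genes), with a median of 0.16 that was -0.54 on library totals and 0.19 above all genes there. The endosomal sensor gene Tlr3 had ratios of -1.75, -2.14 and -1.98 in combination tumours and -0.87, -0.45 and -0.92 in ORIN1001 tumours (change -1.22 ± 0.29, edgeR adjusted p = 0.01). The kinase gene Ikbke and the transcription factor gene Irf3, both downstream of the sensors, rose by 1.00 ± 0.26 and 1.16 ± 0.32 (edgeR adjusted p = 0.0164 and 0.0223). All 3 calls were lost without ORIN1001 tumour 2, that of Ikbke also without combination tumour 3 and that of Irf3 also without combination tumour 2 or 3. Adar, the enzyme that edits adenosines in double-stranded RNA, had a change of 0.60 ± 0.22 that did not pass (edgeR adjusted p = 0.0697).

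Some enzymes of the OAS family make the messenger that activates RNase L. The list of the OAS family and RNase L held 4 genes that rose of 9 tested and 0 that fell (44.4% higher, against 8.69% of all genes). Its median change was 0.91. Oasl1 had J2 levels of 94.7, 121 and 119 CPM in combination tumours and 36.3, 29.2 and 25.8 CPM in ORIN1001 tumours, and inputs of 68.5, 63.7 and 60.02 CPM in the combination and 34.4, 38.4 and 32.1 CPM under ORIN1001. Both kinds of library were higher in the combination without overlap, the J2 libraries by more, and the change was 1.01 ± 0.27 (edgeR adjusted p = 0.0173). Oas1g, Oas1b and Oasl2 rose by 0.96, 0.95 and 0.91, while Oas2 and Oas3 each had a change of -0.27 that did not pass. The count was 0 when scaled by library totals and 0 without combination tumour 2, combination tumour 3, ORIN1001 tumour 2 or ORIN1001 tumour 3. The Oas1 genes are near-identical neighbours between which reads can be split.

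Of 42 interferon-stimulated genes, 4 rose and 7 fell (9.52% and 16.7%, near the 8.69% and 12.2% of all genes), with a median of -0.35. Bst2, which tethers budding viruses to the cell, had ratios of 0.71, 1.62 and 1.93 in combination tumours and -0.18, -1.30 and -0.90 in ORIN1001 tumours (change 2.24 ± 0.45, edgeR adjusted p = 0.00558), and this call remained with any 1 of the 6 tumours left out. The antiviral genes Mx2, Isg15 and Ifi27 rose by 1.20, 1.14 and 0.83, calls that were each lost in 4 of the 6 fits with 1 tumour left out. The chemokine gene Cxcl9 fell by 1.39 ± 0.37 on the log2 scale (edgeR adjusted p = 0.018), with an input difference of 2.03 and a J2 difference of 0.57, both above 0. Trim30a and Ifi44 fell by 1.09 ± 0.27 and 1.08 ± 0.29 (edgeR adjusted p = 0.0132 and 0.0188). The number called lower was 0 without ORIN1001 tumour 2, 1 without ORIN1001 tumour 3 and 3 without combination tumour 2 or 3. Of 13 inflammasome and pyroptosis genes (15.4% higher), Casp1 and Gsdmd, the protease and the pore-forming protein of that pathway, rose by 1.60 ± 0.42 and 1.12 ± 0.30 (edgeR adjusted p = 0.0168 and 0.0189). Both were lost without ORIN1001 tumour 2 or 3, and Casp1 also without combination tumour 2.

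**Figure D5:**
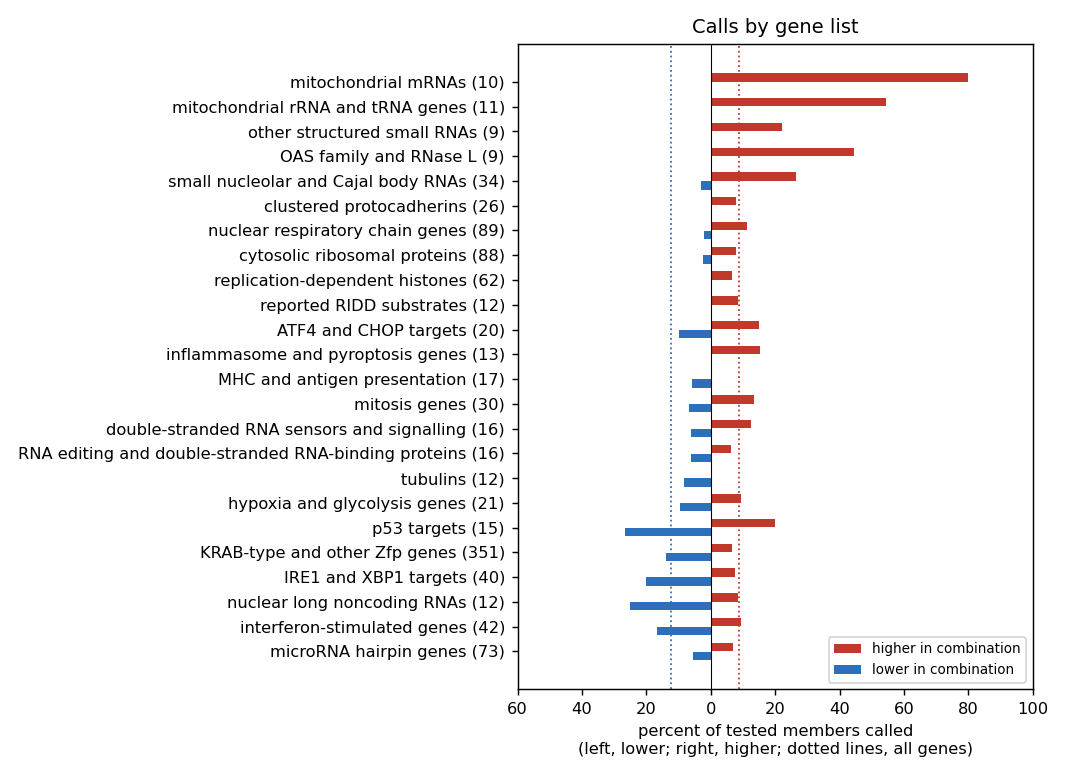
Percent of the tested members of each gene list called higher (right, red) or lower (left, blue) in the combination than under ORIN1001, for lists with 9 or more genes tested (number in brackets), ordered by median change. Dotted lines mark the 8.69% higher and 12.2% lower of all genes. The mitochondrial lists and the list of the OAS family and RNase L extend furthest to the right.

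Lists of cell type markers held 2 to 9 tested genes each, so that counts of calls in them, set beside the 20.9% of all genes called, say little. Dendritic cell markers summed to 68 to 76.7 CPM in combination inputs and to 11.7 to 22.5 CPM in ORIN1001 inputs, and 0 of 6 were called in J2 enrichment, with changes of -2.05 to 1.18. T cell markers summed to 22.8 to 35.6 CPM in combination inputs and 10 to 17.5 CPM in ORIN1001 inputs (0 of 7 called, changes of -0.50 to 2.12), and neutrophil markers to 20.9 to 32.5 CPM in combination inputs and 57 to 91.6 CPM in ORIN1001 inputs (0 of 7, changes of -1.42 to 1.91). Macrophage and monocyte markers summed to 444 to 635 CPM in combination inputs and 258 to 689 CPM in ORIN1001 inputs, and Adgre1, the F4/80 gene, was the 1 of 9 called, lower by 1.00 ± 0.30 (edgeR adjusted p = 0.0277), a call lost without combination tumour 1 or 3 or ORIN1001 tumour 1 or 3. Of 7 NK and cytotoxic markers, Klrk1, an activating receptor gene, fell by 1.97 ± 0.62 on the log2 scale (edgeR adjusted p = 0.0355), a call lost without combination tumour 3 or any ORIN1001 tumour. Of 2 skeletal muscle markers tested, the myosin light chain gene Mylpf rose by 4.28 ± 1.31 (edgeR adjusted p = 0.0345), with overlapping groups and J2 levels of at most 1.75 CPM, a call lost without combination tumour 2 or 3 or ORIN1001 tumour 2 or 3. None of 6 endothelial, 4 adipocyte, 2 red blood cell and 2 B and plasma cell markers tested was called. The part of these cell types in the changes described above was not tested.

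Of 7 fibroblast markers, the fibrillar collagen genes Col1a1, Col1a2 and Col3a1 rose (42.9%, against 8.69% of all genes). The other 4, Pdgfra, Pdgfrb, Dcn and Lum, had changes of -0.09, -0.07, -0.55 and -0.61 that did not pass, and the median of the 7 was -0.07. Col1a1 had J2 levels of 728, 2912 and 1526 CPM in combination tumours and 376, 281 and 577 CPM in ORIN1001 tumours, with inputs of 122, 345 and 167 CPM in the combination and 109, 193 and 390 CPM under ORIN1001. The J2 levels were apart and the inputs overlapped, with a change of 1.99 ± 0.47 (edgeR adjusted p = 0.0111), lost without ORIN1001 tumour 2. Col1a2 had ratios of 1.90, 2.25 and 2.30 in the combination and 1.07, 0.02 and 0.07 under ORIN1001, and Col3a1 ratios of 1.28, 2.21 and 1.73 against 0.59, -0.11 and -0.33 (changes 1.78 ± 0.34 and 1.71 ± 0.35, edgeR adjusted p = 0.00466 and 0.00585). Both of these calls remained with any 1 of the 6 tumours left out.

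Of 6 luminal epithelial markers 2 rose and 2 fell (33.3% each, median change 0.87), and of 5 basal markers 1 rose and 1 fell (20% each, median change 1.07), against 8.69% and 12.2% of all genes. The luminal keratin gene Krt19 rose by 3.28 ± 0.74 (edgeR adjusted p = 0.00861), with J2 levels of 1.06, 2.19 and 0.801 CPM in combination tumours and 0.211, 0.0572 and 0.227 CPM in ORIN1001 tumours. The tight junction gene Cldn4 rose by 1.23 ± 0.27 (edgeR adjusted p = 0.00724), with J2 levels of 1016, 727 and 774 CPM in the combination and 275, 109.7 and 133 CPM under ORIN1001. Neither gene overlapped in its ratios, and both calls remained with any 1 of the 6 tumours left out. The oestrogen receptor gene Esr1 and the luminal regulator gene Elf5 fell by 2.48 ± 0.83 and 1.13 ± 0.35 on the log2 scale (edgeR adjusted p = 0.0459 and 0.0323), the first a call kept only without combination tumour 1 and the second lost whichever of the 6 tumours was left out. Of the basal genes Krt14 rose by 1.44 ± 0.45, with overlapping groups, and Trp63, a regulator of basal cells, fell by 0.88 ± 0.25 on the log2 scale (edgeR adjusted p = 0.0349 and 0.0243). Both were lost without combination tumour 2 or 3 or ORIN1001 tumour 2 or 3.

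Long noncoding RNAs of the nucleus were split, with 1 rising and 3 falling of 12 (8.33% and 25.0%, against 8.69% and 12.2% of all genes). Kcnq1ot1, an antisense RNA that silences an imprinted domain, had ratios of -1.52, -3.37 and -1.73 in combination tumours and -0.64, 0.82 and 0.14 in ORIN1001 tumours (change -2.30 ± 0.54, edgeR adjusted p = 0.0102), with an input difference of 1.92 and a J2 difference of -0.47. Xist, which silences 1 X chromosome in female cells, fell by 1.46 ± 0.42 on the log2 scale (edgeR adjusted p = 0.0254), with J2 levels of 1741, 1432 and 1044 CPM in the combination and 1300, 1613 and 1223 CPM under ORIN1001 and higher inputs in all 3 combination tumours. Gas5, a host of small nucleolar RNAs, rose by 2.18 ± 0.54 (edgeR adjusted p = 0.0133). The call of Kcnq1ot1 was lost without ORIN1001 tumour 2, that of Xist without combination tumour 2 or 3 or ORIN1001 tumour 2 or 3, and that of Gas5 without combination tumour 2 or 3 or ORIN1001 tumour 2.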

How the data were processed

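Per the labels, 12 tumours gave a J2 and an input library each, made with a stranded total RNA kit after ribosomal RNA depletion and with RNA heated before reverse transcription. The deposited values are counts, whole numbers per gene and per TE name. The tools that the submitters' processing notes name are featureCounts 2.0.3, STAR 2.7.3a and fastp 0.23.2, with the build mm10. The sources used here do not give the strand setting, the handling of multi-mapping reads or the overlap of TE and gene counts, so repeats, gene copies, overlapping genes and antisense partners carry uncertain counts. Of 53465 gene rows, 53274 matched a symbol. Coordinates, spans and microRNA sequences are RefSeq's, GRCm38.p6.

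Counts were fitted in edgeR 4.0.16 (R 4.3.3) with TMM factors, filterByExpr (minimum count 10, total 15) and the quasi-likelihood F test over all 24 libraries, with the tumour as block and 1 J2 coefficient per treatment. The contrast is the combination J2 coefficient less that of ORIN1001, two-sided, with Benjamini-Hochberg adjustment over all genes or all TE names at 0.05. TE names were fitted in a joint table with genes. SEs are the absolute change over the root of F. CPM use TMM factors, and per-tumour log2 ratios a pseudocount of 0.5 CPM. Class shares were compared by an exact permutation test. RNAfold 2.7.2 gave the paired bases. The fit was also run on simulated counts with the same dispersion for all genes and no outlying tumour. Those settings differ from these data, so nothing is drawn from that run. Named genes had an adjusted p under 0.05, no overlap and a mean log2 CPM not below 0 (the 12 largest changes each way). Ern1, Xbp1, Trp53 and at most 4 genes per list, those of lowest p, were added, and others are named as list members or as chosen after their values were seen. Members, lists and tests were chosen with earlier results of these data known. Alternatives used DESeq2 1.42.0, limma 3.58.1, other scalings, filters, blocks and sets of tumours. After group means were removed, a tumour's J2 and input libraries correlated at 0.114 to 0.720 in the 6 tumours, and the labels give the pairing. Counts per library, 2.54 M to 45.04 M over genes in the libraries compared, limit the precision of low genes, most in combination J2 libraries.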

Additional observations from a re-analysis of the deposited data

Results flagged for a closer look

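The effect of J2 over input differed between the treatments, by the test of that difference itself, in 1507 genes that were higher and 2121 that were lower in combination than in ORIN1001 tumours, and in 1 TE name, GSAT_MM, with a change of 3.31. Every gene called in the report has met this same test. Groups of 3 tumours are too small for a check of single outlying samples, and values of combination tumour 2 far from those of tumours 1 and 3 are given as values with the genes concerned.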

How the results depend on the processing

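The number of genes called, 3628, was within 1.5 times under DESeq2, its size factors, both filters, the 12 libraries alone, the fit without ribosomal RNA and mitochondrial genes, and the replicate block across treatments (3258). It was 1509 with library totals, 6715 with limma-voom, 5993 without docetaxel tumour 3, 1363 with no replicate block, 1309 to 3785 with 1 of the 6 tumours left out, and 4682 to 6424 without docetaxel tumour 3 and 1 combination tumour. The number of TE names called, 1, was 33 under DESeq2, 151 with library totals, 514 with limma-voom, 21 with no filter, 0 with a minimum count of 50, 688 without docetaxel tumour 3, 592 in the 12 libraries, 63 with the TE table scaled alone, 0 to 16 with 1 of the 6 tumours left out and 620 to 711 without docetaxel tumour 3 and 1 combination tumour. With no replicate block, and with the replicate block across treatments, it was 0 each. Tumours with the same number in different treatments correlated at -0.238 to 0.0832 in input and -0.0217 to 0.0484 in J2 libraries, so numbers do not pair tumours across treatments. Fits without docetaxel tumour 3 and 1 combination tumour, and the TE table alone, were chosen after seeing the data. The log2 share ratio of all TE counts was lower in the combination. Set against gene counts without ribosomal RNA loci, TE counts gave a ratio higher by 0.216. The change of B3 turned to 0.156 with the TE table alone. That of Adar, not called, was -0.0991 with library totals. The other changes of single genes and TE names that were recomputed kept their direction in all alternatives run. The causes were not tested. Low J2 depth in combination tumours limits what can be said of genes with few counts.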
